A study of Mus musculus with 16 samples.

Results

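The telomere-type hexamer, TTAGGG on either strand, occurred 2 or more times in 514 of the 11899 autosomal regions at which H3K9me3 depended on ATRX in mouse embryonic stem cells (ESCs), that is in 4.32% of them (95% Wilson interval 3.97 to 4.70). The members were found by searching the mm9 sequence of each region on chromosomes 1 to 19, with both strands counted together, and the whole list held 13113 regions including chromosomes X and Y. The study compared H3K9me3 ChIP-seq, in which DNA bound by histone H3 trimethylated at lysine 9 is pulled down and sequenced, between the WT ESC line wt26 and *Atrx* KO ESCs, with H3, IgG and input libraries beside it, and called the short regions that were marked in WT but not in KO cells ATRX-dependent heterochromatin nanodomains (HNDs). There were 16 libraries in 8 groups of 2. The study used 2 *Atrx* KO lines, KO1-40 and KO1-45, and the line behind each KO library is not given in the labels. All lines were grown on gelatine with serum and LIF. The measurement available for each HND was its position only, pooled over libraries, so no height, depth or replicate error stood behind any value, and every interval given covers counting error only.

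TTAGGG is the unit of the vertebrate telomere, where many copies stand head to tail and the G-rich strand runs toward the chromosome end. Telomeric DNA is bound by the shelterin proteins, is transcribed into the RNA called TERRA, and can fold into G-quadruplexes on its G-rich strand. ATRX is a chromatin remodeller that, together with DAXX, deposits the histone variant H3.3 at telomeres and at other repeats, and H3K9me3 is a mark of heterochromatin. Short stretches of the telomere unit also lie inside chromosome arms, where they are called interstitial telomeric sequences.

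The members fell into 2 kinds. In 36 HNDs at least 1 pair of hexamers stood head to tail on the same strand, with starts exactly 6 bp apart, and these are called tandem HNDs below. In the other 478 HNDs no copies touched in this way, and these are called scattered. Each is named by its overlapping or nearest gene, and an array on the reverse strand reads CCCTAA along the forward strand of mm9.

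The first 6 HNDs in order of array length, with ties at 12 copies taken by chromosome, were much alike. In 4 of them the array was unbroken and no hexamer lay outside it, with 18 copies at *Hsd11b1*, 15 at *Gm6404*, 14 at *Pde1c* and 14 at *Bdkrb2*. At *Gm11922* an array of 12 copies was followed by a further 3 and preceded by 1. At *U4* the array of 12 copies was on the forward strand and a single copy near the edge of the HND was on the reverse strand. The array stood near the middle of the HND in all 6, with 71 to 103 bp between the array and either edge.

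A single pair of copies was the common case among all members and long arrays the rare one, but the tandem HNDs held a large part of the copies. Exactly 2 hexamers were found in 396 HNDs, 3 in 64 and 4 or more in 54. The 514 HNDs held 1638 hexamers, of which 470 (28.7%) lay in the 36 tandem HNDs. Over all autosomal HNDs, whose 3513 hexamers include the 470 in tandem HNDs, the density was 0.498 hexamers per kb. The density was 0.408 per kb over all autosomal sequence. By the way they were chosen members have more, with 23.8 per kb in tandem HNDs and 1.62 per kb in scattered HNDs, and it was 1.53 per kb in scattered HNDs without the one at *Rdx* described below. In the 395 scattered HNDs with 2 copies the hexamers lay 252 bp apart at the median, with quartiles of 155 and 528 bp.

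**Figure D1:**
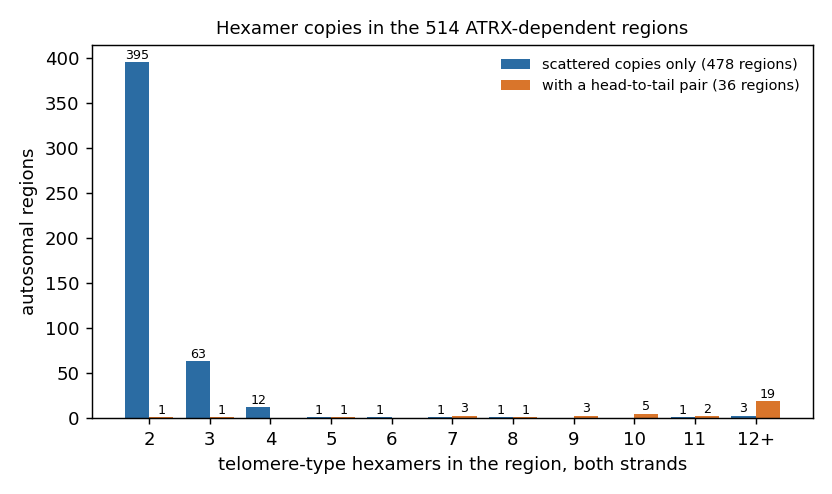
Number of autosomal HNDs (vertical axis) by the number of hexamers they held on both strands (horizontal axis, 12 or more together), for HNDs with scattered copies only and for HNDs with a head-to-tail pair. Of the scattered HNDs 395 held 2 copies and 63 held 3, while 19 of the 36 tandem HNDs held 12 or more.

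Windows as wide as the HNDs on the chromosome of each, taken every 1000 bp over all sequence without unknown bases, served as a description of what the genome holds. In such windows 441.7 HNDs in place of 514 would have had 2 or more hexamers (3.71% against 4.32%), a ratio of 1.16, and 2277.6 in place of 2389 would have had at least 1 (19.1% against 20.1%). A head-to-tail pair would have been met in 3.43 HNDs and was met in 36, a ratio of 10.5 (0.303% of HNDs, interval 0.219 to 0.419, against 0.0288% of windows). The excess of tandem pairs was thus far larger than that of HNDs with several copies, although the 36 tandem HNDs are only a small share of the list. No test was made of either difference. The paper reports the telomeric repeat sequence in a larger share of its HNDs, chromosomes X and Y included, by a motif search. Why that share differs from the one found here was not tested.

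The position of the array inside its HND divided the tandem HNDs further. In 23 of them the longest array had 7 or more copies and in 13 it had 2 to 6, a division made, like the width class below, after the values had been seen. The HNDs with the longer arrays had a median width of 263 bp, and 20 of the 23 (87.0%, 67.9 to 95.5) were between 230 and 280 bp wide, a class that held 1108 of all 11899 autosomal HNDs (9.31%). In these 20 the width was 260.4 ± 6.85 bp (mean and SD over HNDs), with a range from 237 to 271 bp, although their arrays spanned from 42 to 108 bp. A width of exactly 263 bp was found in 5 tandem HNDs and of 264 bp in 4. In 19 of the 20 the middle of the array lay within 12 bp of the middle of the HND, and the median distance was 2.75 bp. The exception was the HND in *Sh3bgrl2*, whose 7-copy array lay 57.5 bp from the middle.

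The 13 HNDs with shorter arrays were wider, from 352 to 1604 bp with a median of 825 bp, none of them lay in the class of 230 to 280 bp, and their array was between 86.5 and 487.5 bp from the middle, 275.5 bp at the median. Of the 23 HNDs with longer arrays, 3 did not have the narrow width. They were the HND near *Anxa10*, an annexin gene, with 32 hexamers in 1134 bp and at most 9 head to tail, the HND in an intron of *Slc14a2*, a urea transporter gene, with 16 hexamers in 778 bp, and the HND in *Gzmk*, which was 151 bp wide. The first whole copy of the *Gzmk* array lay 4 bp from the edge, but in the whole sequence the array ran across that edge. Its 7 copies are those inside the HND only.

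**Figure D2:**
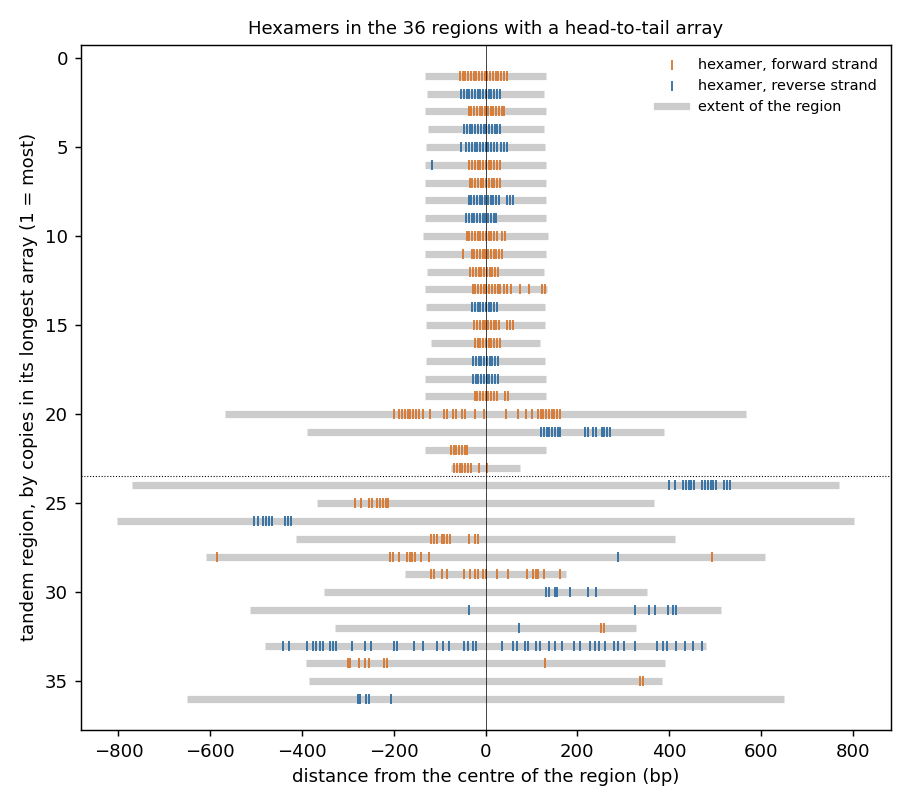
Position of every hexamer relative to the centre of its HND (horizontal axis, bp) in the 36 tandem HNDs, 1 per row in order of the copies in the longest array. Grey bars show the extent of the HND, ticks show hexamers on the forward and reverse strand, and the dotted line parts the 23 HNDs with arrays of 7 or more copies, most of them narrow and centred on the array, from the 13 with shorter arrays.

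The paper states that reads of 50 bases were mapped with up to 2 mismatches and that only uniquely mappable ones were kept. A read that lay wholly within a long pure array could then not be placed. Windows of 50 bases within 2 mismatches of the pure repeat, in any phase and on either strand, were found in 24 tandem HNDs, including all 23 with arrays of 7 or more copies. Such a window always holds a head-to-tail pair, so HNDs of the other kinds cannot have one. The part of mapping in the narrow width was not tested. Of the 50-base words that start in tandem HNDs 91.3% occurred once in mm9, against 80.9% in scattered HNDs, 81.4% in HNDs with 1 copy and 71.3% in HNDs with none. These shares are pooled over words, and the order of the first 3 groups changed with the HND as the unit, where the median share was 90.8% in tandem HNDs, 95.5% in scattered HNDs, 95.3% in HNDs with 1 copy and 86.9% in HNDs with none. All 36 tandem HNDs held words that occurred once, as did 495 of the 514 members and 10806 of all 11899 autosomal HNDs. The remaining HNDs had no such word, although only uniquely mappable reads are said to have been kept, and the reason was not tested. Among tandem HNDs the lowest shares were 33.3% in the HND on chromosome 16 near its centromeric end, named for *AC191865.2*, and 63.9% at *Gm6404*.

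**Figure D3:**
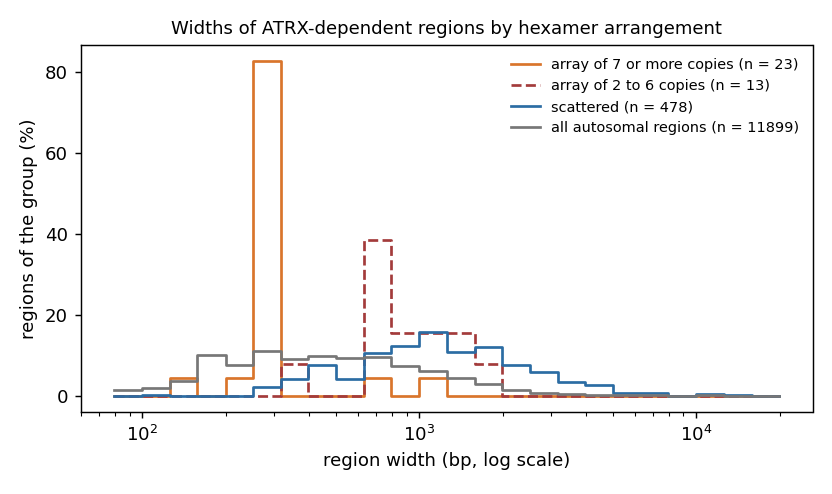
Width of HNDs (horizontal axis, bp on a log scale from 79 bp) as the percentage of each group (vertical axis) for the 23 HNDs with an array of 7 or more copies, the 13 with an array of 2 to 6, the 478 scattered HNDs and all 11899 autosomal HNDs. The first group has a median of 263 bp and lies almost wholly in 1 bin, while scattered HNDs have a median of 1161.5 bp.

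Scattered HNDs were wide. Their median width was 1161.5 bp with quartiles of 739.8 and 1816.8 bp, against 661 bp for HNDs with 1 copy and 353 bp for HNDs with none. A wider HND holds more hexamers of any kind by its length alone, and the count in windows of the same widths given above takes this into account. Widths of 2 kb or more were found in 101 scattered HNDs (21.1%) and in 329 of all 11899 autosomal HNDs (2.77%). None of the 36 tandem HNDs was so wide, where a count of 0 allows up to 8.33%, a limit above the share of all HNDs.

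Seen from the genome, most telomere-type arrays lay outside ATRX-dependent HNDs. The autosomes held 1592 arrays of 2 or more head-to-tail copies, of which 62 (3.89%, 3.05 to 4.96) shared a base with an HND. HNDs covered 0.295% of the autosomal sequence. The share was 23 of 1089 (2.11%, 1.41 to 3.15) for arrays of 2 copies, 8 of 183 (4.37%, 2.23 to 8.39) for 3 copies, 13 of 236 (5.51%, 3.25 to 9.20) for 4 to 9 copies and 18 of 84 (21.4%, 14.0 to 31.3) for 10 or more. The interval of the longest class did not overlap those of the others. Each array was counted on its own, and 59 of the 62 lay wholly inside the 36 tandem HNDs. Several arrays thus shared an HND, which the intervals do not take into account. Loci with 50-base windows within 2 mismatches of the pure repeat numbered 187, and 25 of them (13.4%, 9.22 to 18.99) met an HND.

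**Figure D4:**
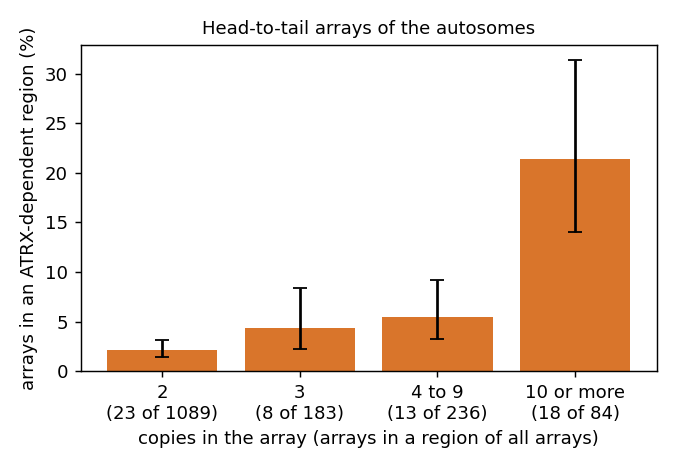
Percentage of the head-to-tail arrays of the autosomes that shared a base with an ATRX-dependent HND (vertical axis) by the number of copies in the array (horizontal axis, with the counts below each class). Bars show the share and error bars the 95% Wilson interval, and the share is 21.4% for arrays of 10 or more copies and at most 5.51% for the shorter classes.

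Arrays of 10 or more copies that met no HND were of like length. The 66 had 12 copies at the median, as did the 18 that lay in an HND, and the 60 of them that lay over 1 kb from the distal end had 11. The longest array in an HND had 18 copies. In the 150 bp on either side of the array 91.2% of 50-base words occurred once in mm9 for the 66 arrays and 96.04% for the 18. The nearest HND lay 81.3 kb away at the median and at least 2.87 kb away. Of the 18 arrays 9 (50.0%, 29.03 to 70.97) lay in a gene, against 19 of the 66 (28.8%, 19.3 to 40.6), and these intervals overlapped.

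The chromosome ends themselves were not in the list. Within 1 kb of the distal end of the sequence, mm9 held 18 arrays on 4 chromosomes, 2, 5, 11 and 18, with 232 copies in all, and all were on the forward strand, as the G-rich strand of a telomere is at that end. The longest had 75 copies on chromosome 18, 44 on chromosome 2, 29 on chromosome 11 and 22 on chromosome 5. None of the 18 met an HND, but they stand for only 4 chromosome ends, and the nearest HND was from 6638 bp to 181822 bp away. Reads that lie wholly within a long pure array cannot be placed by unique mapping, and mm9 holds little of the telomeres, so the list says nothing of the telomeres themselves.

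The tandem HND closest to a distal end, in *Hsd11b1*, was 2.14 Mb away from it. None of the 36 lay within 2 Mb, where only 1.20% of all autosomal HNDs lay. Within 5 Mb there were 3 of 36 (8.33%, 2.88 to 21.8) and within 10 Mb 8 of 36 (22.2%, 11.7 to 38.1), against 3.69% and 8.45% of all autosomal HNDs. The interval at 10 Mb lay above the share of all HNDs and the interval at 5 Mb included it. Within 10 Mb there were 4 of the 23 HNDs with arrays of 7 or more copies (17.4%, 6.98 to 37.1), an interval that included the share of all HNDs. Of the 13 with shorter arrays there were 4 (30.8%, 12.7 to 57.6), an interval that lay above it. The difference was not tested. Of all members 21 (4.09%, 2.69 to 6.17) lay within 5 Mb and 11 (2.14%, 1.20 to 3.79) within 2 Mb. Among the tandem HNDs in the last 10 Mb were those of *Hsd11b1* on chromosome 1, *Tcerg1l* and *U6* on chromosome 7, *Gm6404* and *Gzmk* on chromosome 13, *Farp1* on chromosome 14 and *Adra2a* on chromosome 19.

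Within 1 Mb of a sequenced end of a chromosome there were 13 members, 7 at distal and 6 at centromeric ends. Only 1 of them was tandem, the HND at chr16:3338878-3339612 with 9 hexamers, 339.2 kb from the first sequenced base. The nearest to a distal end was in an intron of *Bicd1*, which encodes an adaptor of the dynein motor, at chr6:149414137-149416708, 101.6 kb from the end. Chromosome 9 had 3 in its last 312.1 kb. The HND of chr9:123761559-123766612 overlapped a coding exon of *Xcr1*, a chemokine receptor gene, and its words occurred once in 97.5% of cases. The next, chr9:123775195-123778729, had no word that occurred once, and the third, chr9:123870522-123874756, had 6.90%. The others were in introns of *Cr2*, *Osbp2* and *Fgf14* or between genes near *Dscam*, *Gm13182*, *Gm11949*, *Sec14l4* and *U6*, each with 2 copies.

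Copies kept to 1 strand in tandem HNDs and much less so in scattered ones. All copies were on the same strand in 33 of 36 tandem HNDs (91.7%, 78.2 to 97.1) and in 263 of 478 scattered HNDs (55.0%, 50.5 to 59.4). The tandem share follows in part from the rule, since a head-to-tail pair is on 1 strand by definition. In 12 HNDs with an array of 7 or more copies and in 1 with a shorter array, every copy lay in the array, so agreement was fixed. Only the other tandem HNDs had copies outside the longest array that could differ in strand. The 3 exceptions, at *U4*, *U6* on chromosome 7 and *Gm5533*, each had 1 copy on the other strand. The longest array was on the forward strand in 21 tandem HNDs and on the reverse strand in 15.

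Among scattered HNDs with 2 copies the same strand was used in 239 of 395 (60.5%, 55.6 to 65.2). Pairs of neighbouring copies over all scattered HNDs were on 1 strand in 418 of 690 cases (60.6%, 56.9 to 64.2), convergent in 137 and divergent in 135. The share was 63 of 69 (91.3%) at up to 20 bp, 60.2% at 21 to 100 bp, 63.1% at over 100 and up to 300 bp and 147 of 285 (51.6%, 45.8 to 57.3) beyond 300 bp. One HND decided the first of these. Without the HND at *Rdx* the share at up to 20 bp was 13 of 19 (68.4%, 46.0 to 84.6) and the share over all pairs was 348 of 620 (56.1%, 52.2 to 59.99).

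The 6-bp register of the telomere repeat was seen in tandem HNDs beyond the arrays themselves and was not seen in scattered HNDs. Of the 430 neighbouring same-strand pairs in tandem HNDs 354 (82.3%, 78.4 to 85.6) were spaced by a multiple of 6 bp, of which 300 were head to tail, 23 were 12 bp apart and 17 were 18 bp apart. With the head-to-tail pairs left out, 54 of 130 (41.5%, 33.4 to 50.1) were multiples of 6. In scattered HNDs 48 of 418 (11.5%, 8.77 to 14.9) were, and 6 of 113 (5.31%, 2.46 to 11.1) at up to 60 bp. Many of these pairs came from the HND at *Rdx*. Without it 45 of 348 (12.9%, 9.81 to 16.9) were, and 3 of 44 (6.82%, 2.35 to 18.2) at up to 60 bp. A spacing of exactly 6 bp is excluded from scattered HNDs by their definition. No scattered pair was 12 bp apart.

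**Figure D5:**
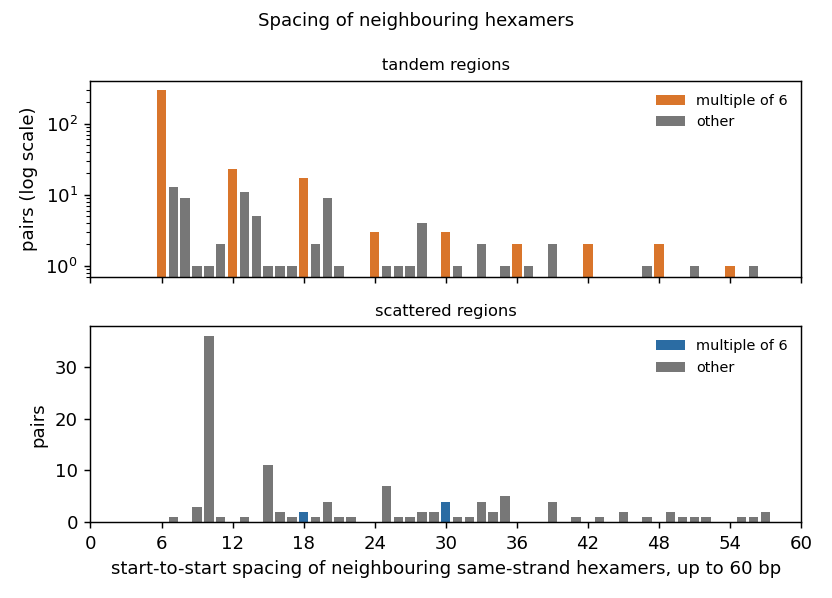
Number of neighbouring same-strand hexamer pairs (vertical axes, the upper one on a log scale) by start-to-start spacing up to 60 bp (horizontal axis) in tandem HNDs (top) and scattered HNDs (bottom), with multiples of 6 bp coloured. Tandem HNDs peak at 6, 12 and 18 bp, and scattered HNDs at 10 bp, where 35 of 36 pairs come from the single HND at *Rdx*.

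The 6 bases that follow a hexamer on its own strand were read in tandem HNDs. Of the 470 hexamers 300 (63.8%) were followed by another, and these are the head-to-tail pairs by which tandem HNDs were chosen. Of the rest 73 (15.5% of the 470) were followed by 6 bases with a single difference from the hexamer and 97 (20.6%) by other sequence. The commonest of the near copies were CTAGGG, 16 times in 7 HNDs, TTAGGT, 12 times in 11 HNDs, TTAGGA, 9 times in 9 HNDs, and TTAGAG, 7 times in 5 HNDs. TTGGGG was found 5 times and TCAGGG 4 times, each in 4 HNDs.

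Some HNDs held many hexamers but no array of more than 3 copies, and 3 are shown because their copies were arranged in different ways. Each stretch starts at the first hexamer of its HND, is read along the forward strand of mm9 and has the hexamers in capitals.

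Ppp1r15b, chr1:135068507-135068804: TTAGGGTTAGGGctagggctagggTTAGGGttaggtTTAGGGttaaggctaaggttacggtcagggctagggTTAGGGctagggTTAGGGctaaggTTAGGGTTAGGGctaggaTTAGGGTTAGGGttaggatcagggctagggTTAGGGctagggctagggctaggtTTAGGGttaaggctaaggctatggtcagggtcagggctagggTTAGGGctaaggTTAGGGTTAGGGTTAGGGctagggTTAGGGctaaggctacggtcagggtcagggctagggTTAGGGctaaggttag
Stc2, chr11:31242616-31242855: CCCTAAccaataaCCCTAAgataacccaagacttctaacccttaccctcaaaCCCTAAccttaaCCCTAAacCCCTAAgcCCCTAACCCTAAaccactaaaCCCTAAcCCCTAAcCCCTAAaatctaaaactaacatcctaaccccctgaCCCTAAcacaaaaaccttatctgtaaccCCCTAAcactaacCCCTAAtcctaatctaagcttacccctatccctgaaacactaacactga
Rdx, chr9:51842987-51843166: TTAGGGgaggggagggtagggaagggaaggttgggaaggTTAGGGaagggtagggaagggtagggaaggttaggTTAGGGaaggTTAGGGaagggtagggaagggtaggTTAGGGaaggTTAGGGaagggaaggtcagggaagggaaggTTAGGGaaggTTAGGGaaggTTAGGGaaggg

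The HND near *Ppp1r15b*, which encodes a regulatory subunit of a phosphatase of translation initiation, had 18 hexamers in 352 bp, at most 3 of them head to tail. The letters between its copies include near copies such as ctaggg and ctaagg. The HND near *Stc2*, the gene of the secreted protein stanniocalcin 2, had 51 hexamers in 959 bp, all on the reverse strand, and its longest array had 2 copies. All of its 50-base words occurred once in mm9. The HND near *Rdx*, which encodes the actin-membrane linker radixin, had 71 hexamers in 3094 bp, the most of any member, and all were on the forward strand without a single head-to-tail pair. Its copies were 10 bp apart in 35 of 70 pairs, with aagg between neighbours in the stretch shown.

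Of the other scattered HNDs with the most copies, both the second and the third lay in an intron of *St3gal4*, a sialyltransferase gene, at chr9:34886760-34899663 with 21 copies in 12904 bp and at chr9:34878572-34886069 with 12 copies in 7498 bp, and only 690 bp parted them. Of their 33 copies 16 were on the forward and 17 on the reverse strand, and 31 of 32 neighbouring copies changed strand. Of the 29 same-strand spacings 26 were between 1200 and 1300 bp. Words of 50 bases that occurred once made up only 8.02% and 2.35% of these HNDs. An HND in an intron of *Reln*, the gene of the extracellular protein reelin, had 11 copies in 1321 bp, and an HND in an intron of *Tmem132c* had 8 in 712 bp, all on the forward strand in both.

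Most copies in scattered HNDs had surroundings of their own, but a part recurred. The stretch of 30 bases made of the hexamer and 12 bases on either side occurred once in mm9 for 760 of 1168 copies (65.1%, 62.3 to 67.7). The share was much the same in HNDs with 1 copy, at 1257 of 1875 (67.0%, 64.9 to 69.1). Stretches that occurred 100 or more times were found for 100 of the 1168 copies (8.56%, 7.09 to 10.3), against 239 of 1875 (12.7%, 11.3 to 14.3) in HNDs with 1 copy. In 271 of 478 scattered HNDs (56.7%) every copy had surroundings that occurred once. Grouped with up to 4 differences, 15 kinds of stretch were shared by 4 or more scattered HNDs and took up 204 of the 1168 copies (17.5%, 15.4 to 19.7) in 141 HNDs. The same 15 kinds held 296 of the 1875 copies in HNDs with 1 copy (15.8%, 14.2 to 17.5). The commonest are printed with the number of scattered HNDs in which each kind was met, because pairs of them recurred at set distances. They read 5′ to 3′ along the strand of the hexamer, which is in capitals.

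Kind A, 52 HNDs: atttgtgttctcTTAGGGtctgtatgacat
Kind B, 38 HNDs: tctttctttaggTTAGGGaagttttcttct
Kind C, 15 HNDs: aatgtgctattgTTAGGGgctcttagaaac
Kind D, 14 HNDs: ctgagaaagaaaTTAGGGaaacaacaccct
Kind E, 13 HNDs: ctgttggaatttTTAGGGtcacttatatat
Kind F, 9 HNDs: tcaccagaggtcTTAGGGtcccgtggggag

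The stretches as printed occurred 592, 1456, 326, 16952, 2158 and 4912 times in mm9, in the order given. Kinds A and B stood next to each other in 33 scattered HNDs, always on the same strand, from 105 to 300 bp apart with a median of 249 bp. Kinds D and E stood next to each other in 12 HNDs, always on opposite strands and 128 or 129 bp apart. Kind F was met with a second copy of itself in all 9 of its HNDs, on the same strand, with a median distance of 208 bp. Together with another combination in 5 HNDs these pairs were found in 59 scattered HNDs. Among the 2-copy HNDs with such a pair the strand was shared in 44 of 55 (80.0%, 67.6 to 88.4), and among those without one in 195 of 340 (57.4%, 52.0 to 62.5). No repeat annotation was used, so these kinds carry no repeat names.

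Tandem HNDs that touched a gene lay in its introns. Of the 36, 15 (41.7%, 27.1 to 57.8) overlapped a gene of the annotation, 14 of them protein-coding, all 15 were intronic, and none touched an exon, where a count of 0 allows up to 8.33%. Genes were overlapped by 37.0% of scattered HNDs (32.8 to 41.4), 32.1% of HNDs with 1 copy and 30.1% of HNDs with none, and exons by 9.62%, 5.97% and 4.01%, in the order in which the median width fell. Among HNDs with arrays of 7 or more copies 12 of 23 (52.2%, 32.96 to 70.8) were in an intron, against 3 of 13 (23.1%, 8.18 to 50.3) with shorter arrays, and these intervals overlapped. The G-rich strand of the array was the coding strand of the gene in 8 cases and the opposite one in 7.

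The genes with a long array in an intron were of varied function. They were *Hsd11b1*, which encodes the enzyme that regenerates active glucocorticoid, *Pde1c*, a cyclic nucleotide phosphodiesterase, *Immp2l*, a subunit of the mitochondrial inner membrane peptidase, *Ppp2r2b*, a regulatory subunit of the phosphatase PP2A, *Rims1* and *Cadps*, which act in the release of synaptic and dense-core vesicles, *Gria1*, a subunit of the AMPA receptor, *Slc14a2*, *Sh3bgrl2*, the granzyme gene *Gzmk*, *2210408I21Rik*, and the non-coding *Gm16154*. The array had 14 copies in *Pde1c*, 12 in *Immp2l*, *Ppp2r2b* and *Gm16154*, 11 in *Rims1* and *2210408I21Rik*, 10 in *Gria1* and *Cadps*, 8 in *Slc14a2* and 7 in *Sh3bgrl2* and *Gzmk*, at *Gzmk* counted inside the HND only. At *Hsd11b1* a second annotated gene overlapped the HND. Several of these genes are long, with 1305.9 kb for *Immp2l*, 635.3 kb for *Rims1* and 450.5 kb for *Cadps*. Their lengths were not compared with those of genes at other HNDs. Introns of *Pde7b*, *Farp1* and *Zbtb7c* held the shorter arrays.

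The other 21 tandem HNDs lay between genes, mostly far from a gene start. The nearest start was that of *Mylk*, the gene of myosin light chain kinase, 2.05 kb from an HND at chr16:34742985-34743247 with an unbroken array of 10 copies. The next nearest were *U4* at 13.4 kb and *AC191865.2* at 14.3 kb. The distance was 38.3 kb at *Bdkrb2*, a bradykinin receptor gene, 229.4 kb at *Cenpw*, a centromere protein gene, and 394.9 kb at *Fam55b*.

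Another HND lay within 10 kb of 4 of the 36 tandem HNDs (11.1%, 4.41 to 25.3), an interval that included the 24.7% of scattered HNDs (21.03 to 28.7) and the 20.2% of all autosomal HNDs. The nearest HND was 66.8 kb away at the median for those with arrays of 7 or more copies. *Gria1* held 9 HNDs, of which 5 were members, more than any other gene, and 1 of these was tandem. The array, at chr11:57116039-57116297, had 10 of its HND's 13 hexamers, and the other 4 members, at chr11:57025270-57027441, chr11:57043596-57048341, chr11:57058192-57059945 and chr11:57096895-57098398, had 2 copies each, on the forward strand in 3 of them and on the reverse strand in the third. In all, 8 genes held 2 or more members, among them *Etv5*, an ETS transcription factor gene, with 3.

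The pattern that can form a G-quadruplex on either strand, 4 runs of 3 or more G parted by 1 to 7 bases, was found in 35 of the 36 tandem HNDs, in 82 of 478 scattered HNDs (17.2%, 14.0 to 20.8), in 10.8% of HNDs with 1 copy and in 5.06% of those with none. An array of 4 hexamers contains this pattern by their letters alone. The exception was an HND on chromosome 1 near *U6* with 7 hexamers, at most 2 of them head to tail.

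Over chromosomes the members made up 4.31 ± 1.09% of HNDs (mean and SD over 19 chromosomes), from 3.16% on chromosome 5 to 7.56% (5.96 to 9.53) on chromosome 11. Chromosome 11 had 64 members of 847 HNDs, of which 62 were scattered, and its windows of the same widths would have given 40.5, a ratio of 1.58. The ratio was 1.54 on chromosome 12, 1.47 on chromosome 17 and 0.851 on chromosome 15. The median width of all HNDs was 494 bp on chromosome 11 and 417 bp over the autosomes. Tandem HNDs were found on 15 of the 19 chromosomes, with 7 on chromosome 1 and 4 on chromosome 14, and none was found on chromosomes 2, 5, 15 and 17.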

How the data were processed

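Single-end reads of 50 bp were aligned to mm9 by the authors, who state that they allowed 2 mismatches and kept reads that mapped uniquely. Their read counts also list reads with several alignments as sampled. Per the submitters' processing notes and the methods, Bowtie2, MACS2 and bedtools were used. Broad H3K9me3 peaks were called against input, and regions present in WT and absent in *Atrx* KO were kept. How replicates were joined and what overlap counted as absent are not given in the sources used here. The deposited list has 3 columns, chromosome, start and end, and 0 columns hold values of single libraries. Depth at each HND is thus unknown and no test across libraries was possible. The paper does report read counts by library. Reads with a reported alignment were fewer in both WT H3K9me3 libraries than in both KO ones, and the part of this in the list was not tested.

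From this list, widths and hexamer copies were computed on the mm9 sequence (NCBIM37) and overlaps on its GENCODE M1 annotation, in Python 3.11.15 with numpy 2.4.6, pandas 2.3.3, scipy 1.17.1 and numba 0.67.0. Positions count from 1. Copies of 50-base words were counted over all of mm9 on both strands. Shares carry 95% Wilson intervals. Tested on simulated sequence, the search recovered 200 of 200 planted arrays. Where a share is 0, the limit is 3 counts of the total. Named are the 10 tandem HNDs with the longest arrays, the 5 scattered HNDs with most copies, every member within 1 Mb of a sequenced end and the genes at tandem HNDs, and *Ppp1r15b*, *Stc2*, *Etv5* and the kinds of stretch were chosen after their values were seen. Some sequences and a gene name are not reported here. Members and lists were chosen with earlier results of these data known. Alternatives were strands, region limits, widths, spacing, distances, gene types and word lengths.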

Additional observations from a re-analysis of the deposited data

Results flagged for a closer look

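Chromosomes X and Y were outside the comparisons above and held 70 regions with 2 or more hexamers. They are listed only because no comparison used them, and no number was predicted for them. Of these 46 were among 1040 HNDs on chromosome X (4.42%, 3.33 to 5.85, against 4.32% on the autosomes) and 24 among 174 on chromosome Y (13.8%, 9.45 to 19.7). The members on chromosome Y were wide, with a median of 3265 bp against 972.5 bp on chromosome X, and none was tandem. The 2 tandem HNDs on chromosome X lay at chrX:14317145-14317210, with 6 copies head to tail in 66 bp, and at chrX:85829906-85830565, with 2. The part of the wider HNDs in the share on chromosome Y was not tested.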

How the results depend on the processing

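Of 27 alternatives 16 left the value within its limits (1.5 times for counts, the interval for shares) and 11 moved it. The number of members was 184 by the forward strand only, 186 by the reverse strand only and 118 with 3 or more copies, and it stayed between 512 and 726 with extended, joined or wider regions or with X and Y. Tandem HNDs numbered 29 to 42 under all 4 alternatives. The share on 1 strand was 60.5% for exactly 2 copies and 60.6% for consecutive pairs. The share of spacings that were multiples of 6 was 47.4% over all members, 11.5% in scattered HNDs and 66.5% within 60 bp. The share near the distal end was 2.14% within 2 Mb and 9.14% within 10 Mb. The mean width was 1443.7 bp, and 75.3% of words of 36 bases occurred once. No paired analysis was possible because no value per replicate stands in the file, and leaving out a replicate gave no value for the same reason. Depth at each HND is unknown, so the list does not show how strongly any HND was marked. Unique mapping, where it was applied, limits what the list can hold of pure telomere repeat.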
